A study of Homo sapiens with 6 samples.

Results

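The genes described here are 33 regulators and direct targets of p53, the transcription factor that stops the cell cycle or starts cell death after DNA damage and other stress. They were found by gene name among the 60666 genes of the primary assembly in the deposited expression table, and each name matched 1 gene. Of the 33 genes, 30 averaged 1 FPKM or more across all samples (FPKM is a level corrected for transcript length and sequencing depth) and were tested together with 12025 genes in all. SPATA18, GDF15 and TP53I11 were below this level and are given by their values alone.

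The study asked how loss of OFD1, a protein of centrioles and centriolar satellites that is named for oral-facial-digital syndrome, changes cell cycle progression and formation of the primary cilium. RNA was sequenced from hTERT-RPE1-TOShOFD1 cells, a telomerase-immortalized line derived from human retinal pigment epithelium (RPE) in which a Tet-On lentivirus drives a short hairpin RNA against OFD1. The 3 control samples (genotype label WT) grew without doxycycline, and the 3 OFD1-depleted samples (genotype label OFD1 knockdown) grew with doxycycline at 200 ng/mL, each for 72 hours. All 6 samples carry the hairpin construct, all come from this line, and no sample has doxycycline without the hairpin, so an action of doxycycline itself and the loss of OFD1 cannot be told apart. The study calls its RNA samples biological replicates, and the labels do not say how separate the cultures were.

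p53 binds DNA as a tetramer and is held at a low level by MDM2 and MDM4, which are themselves kept under its transcriptional control in a feedback loop. Its targets include inhibitors of the cell cycle, repair enzymes, death receptors, mitochondrial apoptosis genes and sensors of nutrients and oxidants. In RPE1 cells p53 is functional, and the line is widely used to study arrest after centrosome loss, which reaches p53 through TP53BP1 and USP28.

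OFD1 itself (ENSG00000046651, GRCh38 chrX:13734745-13769357, + strand) was at 3.34, 3.62 and 3.44 FPKM in the control replicates and at 0.795, 0.763 and 1.43 FPKM in the OFD1-depleted replicates, or 28.7% of control. Gene positions are those of the table, in build GRCh38, from the first to the last annotated base. For OFD1 the log2 fold change was -1.75 (SE 0.255, adjusted p = 0.00085, limma with Benjamini-Hochberg adjustment over all genes tested). An approximate depth of 37600000 to 44200000 fragments per sample was estimated from the steps between low values, although only 16.5% to 19.9% of those values lay on whole steps. Mitochondrially encoded genes made up 8.66% to 13.8% of the summed FPKM in control and 15.6% to 19.3% in OFD1-depleted samples. The labels give the tissue as retina, but the cells are a cultured line. All 10 markers of photoreceptors and neural retina were below the tested level, with 6 listed at 0 in every sample and a summed level of 0.117 to 0.502 FPKM. Of 12 RPE markers, only MITF and OTX2 reached the tested level, RPE65 was at or below 0.209 FPKM in every sample, and TTR and RGR were listed at 0. The summed level of the 12 markers was 8.08 to 8.96 FPKM in control and 10 to 13.1 FPKM after OFD1 depletion. The highest of these sums, in OFD1-depleted replicate 2, held 4.33 FPKM of BEST1. That gene was at or below 0.0475 FPKM in every other sample. The keratins KRT8 and KRT18, with EPCAM at 0 and CDH1 near 0, brought the summed epithelial markers to 254 to 272 FPKM in control and 294 to 407 FPKM after OFD1 depletion. The part of these shifts in the results was not tested.

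OFD1-depleted replicate 2 stood apart from the other samples by transcript length. When the genes tested were split into 4 equal classes by length, its median log2 difference from the control mean was 0.31 in the shortest class (up to 1754 bases) and -0.41 in the longest (4930 bases and more), whereas in OFD1-depleted replicates 1 and 3 every class median lay between -0.10 and 0.06. For this reason some results below are also given without this sample. Others moved too, such as the log2 fold changes of GADD45A (0.56 to 0.44) and XPC (-0.78 to -0.66). In the 9 p53 genes of the longest class, which are MDM2, MDM4, POLH, CYFIP2, TP53INP1, RPS27L, ZMAT3, SESN1 and TIGAR, the median difference from control was 0.31, -0.02 and 0.33 on the log2 scale in OFD1-depleted replicates 1, 2 and 3. In the other 21 genes tested it was 0.29, 0.29 and 0.16. OFD1-depleted replicate 2 was the lowest of the 3 OFD1-depleted samples in 15 of the 30 genes.

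Of the 30 p53 genes tested, 8 rose, 1 fell and 21 did not pass the test (limma, adjusted p under 0.05). The 8 that rose were SESN1, SESN2, BTG2, TIGAR, EDA2R, GADD45A, CCNG1 and TRIAP1, with fold changes of 1.38 to 2.26, and the 1 that fell was XPC, at 0.581 of control. Among all genes tested, 5.07% rose and 11.9% fell, so the share of p53 genes that rose (26.7%) was above that background and the share that fell (3.33%) was below it. A log2 fold change above 0 was found in 26 of the 30 p53 genes (86.7%) and in 46.3% of all genes. Their median log2 fold change was 0.21, beside -0.03 for all genes. The 3 OFD1-depleted values lay above the 3 control values in 11 p53 genes, where 13.8% of all genes did so, and below them in 3, where 22.3% of all genes did so. The p53 genes were chosen with earlier results of these data known, so these contrasts are a description and not a test.

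These shares depended on the scaling of the samples. When every sample was scaled to the same total, the medians of the p53 genes and of all genes moved to 0.06 and -0.18, and the p53 genes above 0 went from 26 to 18, beside 30.2% of all genes. Those that passed the test with this scaling were BTG2, GADD45A, SESN1 and SESN2 as higher, where 2.23% of all genes passed, and XPC and TNFRSF10D as lower, where 16.5% of all genes passed. The difference between the 2 medians lay between 0.22 and 0.28 under all 19 alternatives. Rescaling a sample moves all its genes by nearly the same amount, so it could hardly change this difference. Some other alternatives change no fold change at all. Without OFD1-depleted replicate 2, 10 p53 genes rose and 1 fell, and the shares of all genes that rose and fell were then also larger, at 8.96% and 14.5%. In RNA from whole cultures, a change in every cell and a change in the share of cells in one state cannot be told apart.

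**Figure D1:**
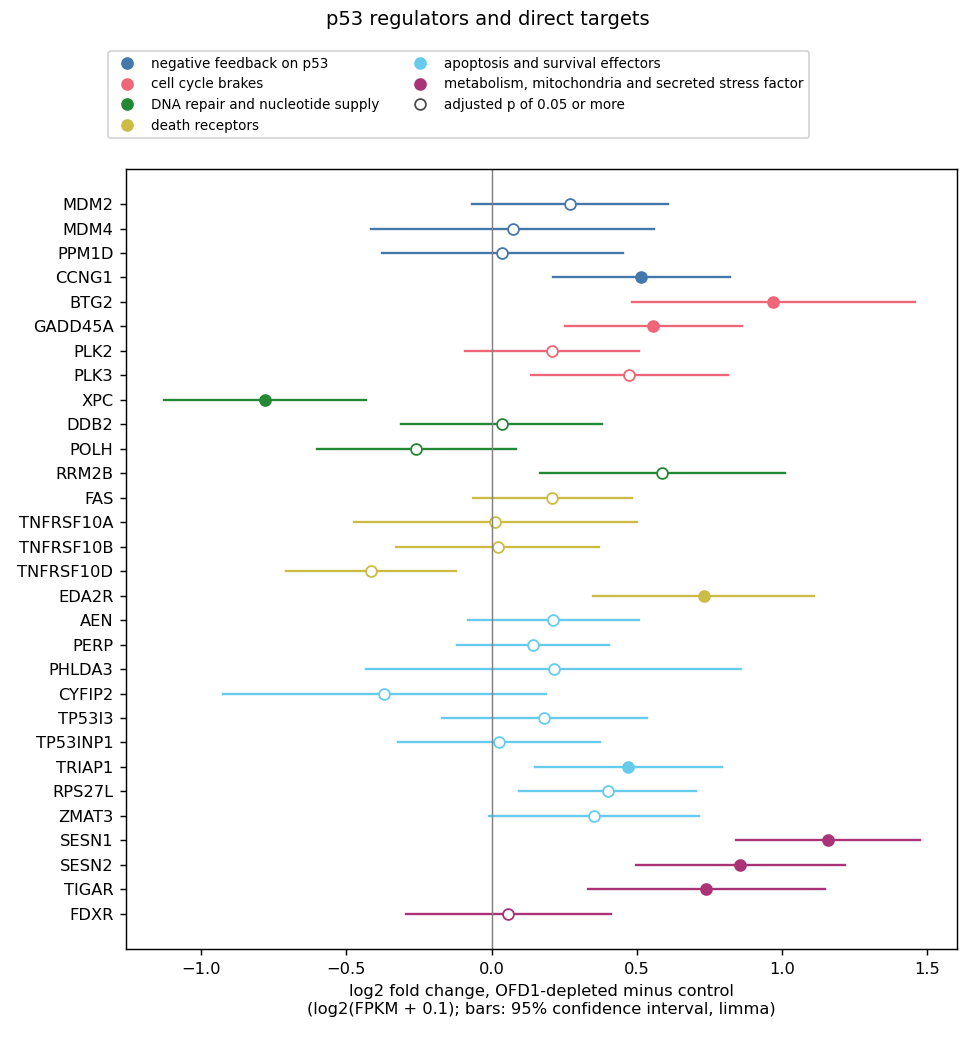
Log2 fold change of the 30 p53 genes tested, OFD1-depleted minus control on the log2(FPKM + 0.1) scale, with 95% confidence intervals from limma and colours for the role of each gene. Filled points passed the test, 8 of them above 0 and XPC below it.

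Since these genes are grouped by their control by p53, the windows around their start sites were read for its binding sequence. The p53 consensus decamer, a palindromic unit of 10 bases, was searched on both strands in the RefSeq windows from 250 bases before to 50 bases after each annotated start (build GRCh38.p14), and paired decamers were searched with a spacer of up to 13 bases and up to 2 bases off the consensus in all. Of the 33 genes, 26 had a window. A decamer lay in a window of 7 of the 26 (26.9%) and of 8.06% of all 27305 genes with a window. Paired decamers lay in windows of AEN, DDB2 and FAS (11.5%) and of 1.81% of all genes. A gene can have more than 1 window. By window, a decamer lay in 17.1% of the 41 windows of these genes and in 6.63% of all 35116 windows. Paired decamers lay in 7.32% and 1.46%. A match is a description and not a site of binding, and many p53 sites of these genes lie in introns or farther upstream, outside such windows. The stretches with a match are printed 5′ to 3′ on the strand of the gene with the decamers in capitals.
AEN (chr15:88621280-88621339, + strand): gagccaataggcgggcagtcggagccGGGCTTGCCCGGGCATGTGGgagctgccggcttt
DDB2 (chr11:47214975-47215004, + strand): gtttGAACAAGCCCtGGGCATGTTTggcgg
FAS (chr10:88991289-88991348, + strand): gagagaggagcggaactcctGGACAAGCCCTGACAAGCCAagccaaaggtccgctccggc
FDXR (chr17:74872995-74873054, - strand): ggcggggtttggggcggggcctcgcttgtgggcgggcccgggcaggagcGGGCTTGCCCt
PLK2 (chr5:58460184-58460243, - strand): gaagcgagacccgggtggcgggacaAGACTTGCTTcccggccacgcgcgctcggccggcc
RPS27L (chr15:63157502-63157561, - strand): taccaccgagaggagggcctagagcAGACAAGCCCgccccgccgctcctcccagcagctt
SESN1 (chr6:109009003-109009062, - strand): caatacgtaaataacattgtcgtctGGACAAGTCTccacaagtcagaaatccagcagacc
The pair in DDB2 matched the consensus at every base, with a spacer of 1 base, and began 5 bases past the start. The pairs in AEN and FAS were each 2 bases off with no spacer. Of the 7 genes with a decamer, only SESN1 passed the test for a change after OFD1 depletion, and DDB2, AEN, FAS, FDXR, PLK2 and RPS27L did not. Among all genes tested 5.07% rose and 11.9% fell, so this count is not read as a result about the decamer.

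The genes of negative feedback on p53 had 1 of 4 higher. CCNG1 (ENSG00000113328, chr5:163437569-163446151, + strand), cyclin G1, which brings the phosphatase PP2A to MDM2, was at 47.8, 58.1 and 43.2 FPKM in control and at 71.8, 66.2 and 73.8 FPKM after OFD1 depletion. All 3 OFD1-depleted values were above all controls. On the log2 scale the change was 0.52 (SE 0.139, adjusted p = 0.0271, limma), and the adjusted p was 0.00115 to 0.141 over 19 alternatives, of which 11 kept it under 0.05. Of the single samples, leaving out control replicate 1 or 3 or OFD1-depleted replicate 1 or 3 ended this call.

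MDM2 (ENSG00000135679, chr12:68808177-68850686, + strand), the ubiquitin ligase that marks p53 for degradation and a common readout of p53 activity, was at 8.97, 10.3 and 8.9 FPKM in control and at 12.5, 9.33 and 12.5 FPKM after OFD1 depletion. OFD1-depleted replicates 1 and 3 were above every control, and replicate 2 lay among the controls. The log2 fold change of MDM2 was 0.27 (SE 0.153, adjusted p = 0.263, limma). Without OFD1-depleted replicate 2 it was 0.41 with an adjusted p of 0.0333, and with trends on transcript length and GC content taken out of every sample it was 0.36 with an adjusted p of 0.0251. MDM2 passed in 3 of 19 alternatives, and its adjusted p was up to 0.681 in the others. MDM4, the partner of MDM2 that masks the activation domain of p53, had a log2 fold change of 0.07 (95% confidence interval -0.42 to 0.56), and PPM1D, the phosphatase WIP1 that reverses damage signalling, had 0.04 (-0.38 to 0.45). Their values overlapped between the groups, between 1.54 and 2.38 FPKM for MDM4 and between 2.04 and 2.44 FPKM for PPM1D, and the sign of both depended on the alternative.

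The cell cycle brakes had 2 of 4 higher. BTG2 (ENSG00000159388, chr1:203305491-203309602, + strand), an antiproliferative factor that recruits deadenylases to mRNA, was at 1.04, 1.3 and 1.07 FPKM in control and at 2.47, 2.12 and 2.36 FPKM after OFD1 depletion. The groups did not overlap, and the mean was 2.04 times that of control. In the fit, the log2 fold change of BTG2 was 0.97 (SE 0.221, adjusted p = 0.0121, limma), and it passed the test in 17 of 18 alternatives, with an adjusted p of 0.0522 when control replicate 1 was left out.

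GADD45A (ENSG00000116717, chr1:67685201-67688334, + strand), a growth arrest protein that binds PCNA and the CDK1 kinase, was at 73.6, 77.6 and 72.9 FPKM in control and at 107, 129 and 95.6 FPKM after OFD1 depletion. Every OFD1-depleted value was above the narrow range of the controls. The fit gave a log2 fold change of 0.56 (SE 0.138, adjusted p = 0.0185, limma), with 15 of 19 alternatives past the threshold. The call was lost without control replicate 1, control replicate 3 or OFD1-depleted replicate 1, and when no filter on low genes was set, with an adjusted p of up to 0.0819.

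PLK2 and PLK3, polo-like kinases that respond to stress, did not pass the test. PLK3 was at 13.2, 15.8 and 18.8 FPKM in control and at 21.8, 24.4 and 19.9 FPKM after OFD1 depletion. There was no overlap between the groups, and the log2 fold change was 0.47 (95% confidence interval 0.14 to 0.81, adjusted p = 0.0574, limma), with 7 of 19 alternatives past the threshold. PLK2, at 225 ± 18.4 FPKM in control (SD, n = 3), had the highest level per length of the 33 genes and was at 260 ± 26.1 FPKM in OFD1-depleted samples (SD, n = 3). Its groups overlapped, and its log2 fold change of 0.21 (-0.09 to 0.51) did not pass.

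Among the genes of DNA repair and nucleotide supply, 1 of 4 fell and the other three did not pass. XPC (ENSG00000154767, chr3:14145147-14178621, - strand), which recognises distorted DNA at the start of nucleotide excision repair, was at 7.98, 8.43 and 9.35 FPKM in control and at 5.78, 4.16 and 5.03 FPKM after OFD1 depletion. The groups did not overlap, and the difference was several times the SD of either group (0.699 and 0.809 FPKM). The log2 fold change of XPC was -0.78 (SE 0.158, adjusted p = 0.00633, limma), and it passed the test as lower in all 19 alternatives, with log2 fold changes from -0.93 to -0.66.

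RRM2B (ENSG00000048392, chr8:102204502-102238961, - strand), the p53-inducible small subunit of ribonucleotide reductase, was at 13.6, 15.4 and 11.3 FPKM in control and at 24.2, 14.9 and 22.5 FPKM after OFD1 depletion. OFD1-depleted replicates 1 and 3 were well above the controls, and replicate 2 was below control replicate 2. Its log2 fold change was 0.59 (SE 0.192, adjusted p = 0.0579, limma). Without OFD1-depleted replicate 2 it was 0.80 (adjusted p = 0.00464), and 8 of 19 alternatives passed in all.

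DDB2, which binds ultraviolet photoproducts and whose printed stretch held the exact pair of decamers, had a mean of 7.65 ± 1.22 FPKM in control and 7.8 ± 0.748 FPKM after OFD1 depletion (SD, n = 3 each). On the log2 scale the change was 0.03 (95% confidence interval -0.31 to 0.38), with a sign that depended on the alternative. POLH, the translesion polymerase eta, was at 3.81 to 4.33 FPKM in control and 3.24 to 3.62 FPKM after OFD1 depletion. Its groups did not overlap, but its log2 fold change of -0.26 (adjusted p = 0.29, limma) did not pass in any alternative.

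Of the 5 death receptors, 1 was higher. EDA2R (ENSG00000131080, chrX:66595637-66639298, - strand), the receptor for the A2 form of ectodysplasin, was at 3.79, 2.99 and 3.01 FPKM in control and at 6.22, 4.67 and 5.55 FPKM after OFD1 depletion. All 3 OFD1-depleted values exceeded the controls. The fitted log2 fold change was 0.73 (SE 0.174, adjusted p = 0.0149, limma), with 11 of 18 alternatives past the threshold. Leaving out control replicate 2 or 3 or OFD1-depleted replicate 1 or 3, scaling to the same total and setting no filter were among the 7 that ended the call, with an adjusted p of up to 0.0734.

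TNFRSF10D (ENSG00000173530, chr8:23135588-23164027, - strand), a decoy receptor for TRAIL with an incomplete death domain, was at 69.3, 57.7 and 66.7 FPKM in control and at 54, 44.3 and 46.8 FPKM after OFD1 depletion. There was no overlap between the groups, and the log2 fold change was -0.42 (95% confidence interval -0.71 to -0.12, adjusted p = 0.0547, limma). It passed as lower in 5 of 19 alternatives. The signalling TRAIL receptors TNFRSF10A and TNFRSF10B had log2 fold changes of 0.01 (-0.48 to 0.50) and 0.02 (-0.33 to 0.37), and their groups overlapped. TNFRSF10B was at 52.4 ± 4.63 FPKM in control and 53.7 ± 11.2 FPKM after OFD1 depletion (SD, n = 3 each), about as high per length as TNFRSF10D, whereas TNFRSF10A was below 2 FPKM in every sample. FAS, the receptor of FAS ligand, was at 16.6 to 19.1 FPKM in control and 19.8 to 22 FPKM after OFD1 depletion. No value overlapped between its groups, but its log2 fold change of 0.21 (adjusted p = 0.29, limma) did not pass. FAS shares a stretch of the genome with ACTA2, the smooth muscle actin gene on the other strand, which went from a mean of 238 to 632 FPKM, and the strand setting of the read assignment is not given in the sources used here.

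Of the 10 effectors of apoptosis and survival, 9 were tested and 1 was higher. TRIAP1 (ENSG00000170855, chr12:120443964-120446384, - strand), a small mitochondrial protein that restrains apoptosis, was at 23.7, 27.4 and 19.7 FPKM in control and at 30.8, 35.7 and 31.2 FPKM after OFD1 depletion. Its groups did not overlap, and its log2 fold change was 0.47 (SE 0.147, adjusted p = 0.0484, limma). It had the highest adjusted p of the 9 genes that passed, and 10 of 19 alternatives kept it past the threshold. The call was lost without OFD1-depleted replicate 2 (adjusted p = 0.0693, limma) and also without control replicate 1 or 3 or OFD1-depleted replicate 1 or 3. Setting no filter, limma without the trend and scaling to the same total ended it too. Over all alternatives the adjusted p-values were up to 0.223.

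ZMAT3 (ENSG00000172667, chr3:178960121-179072215, - strand), a zinc finger RNA-binding protein that controls splicing, was at 14.9, 13.4 and 13.5 FPKM in control and at 20.5, 13.7 and 19.9 FPKM after OFD1 depletion. As for MDM2 and RRM2B, replicates 1 and 3 were above every control and replicate 2 was not. In the fit, the log2 fold change of ZMAT3 was 0.35 (adjusted p = 0.173, limma), and without OFD1-depleted replicate 2 it was 0.54 (adjusted p = 0.00746). It passed in 3 of 19 alternatives, with an adjusted p of up to 0.5 in the others. RPS27L, a paralog of the ribosomal protein RPS27, was at 24.8, 22 and 21.2 FPKM in control and at 28, 34.8 and 27.4 FPKM after OFD1 depletion. No value overlapped between its groups, and its log2 fold change of 0.40 (adjusted p = 0.072, limma) passed in 1 of 19 alternatives. How the read assignment divided fragments between RPS27L and its close relative RPS27 is not given, which leaves this value uncertain.

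The other effectors did not pass in the fit with all samples or in any of their alternatives. AEN, a nuclease that aids apoptosis, and PERP, a desmosomal membrane protein, had log2 fold changes of 0.21 (-0.08 to 0.51) and 0.14 (-0.12 to 0.40). TP53I3, a quinone oxidoreductase, and TP53INP1, a factor in autophagy and cell death, had 0.18 (-0.17 to 0.53) and 0.03 (-0.32 to 0.37). PHLDA3, a repressor of the AKT kinase, had 0.21 with the widest interval of the group (-0.43 to 0.86). Its values were 39.2, 57 and 34.4 FPKM in control and 48.6, 79.9 and 30.8 FPKM after OFD1 depletion, with replicate 2 highest in both groups. CYFIP2, a subunit of the WAVE complex that activates Arp2/3, had -0.37 (-0.93 to 0.19) at a level of 1.01 to 1.77 FPKM. TP53I11 was listed at 0 in all 6 samples. Like FAS, the genes POLH, TNFRSF10B, CYFIP2, TP53I3, TP53INP1 and RPS27L each lay over a gene on the other strand with a mean of at least 1 FPKM. None of these 7 passed the test. As 5.07% of all genes tested rose and 11.9% fell, this count is not read as a result about the overlap.

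**Figure D2:**
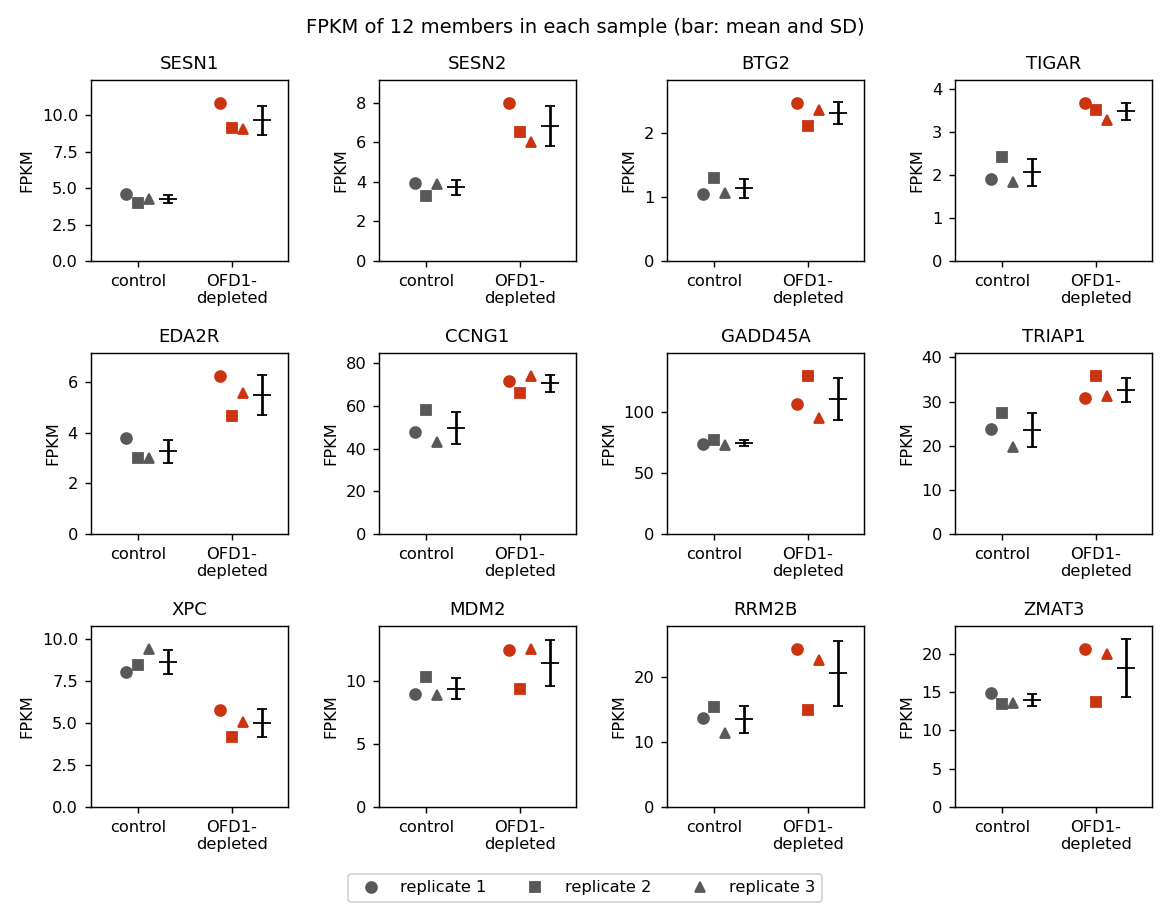
FPKM of 12 p53 genes in each sample, with the mean and SD of each group as bars beside the points and each axis starting at 0. The 8 genes that rose and XPC show no overlap between the groups, and in MDM2, RRM2B and ZMAT3 OFD1-depleted replicate 2 lies among the controls while replicates 1 and 3 lie above them.

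The genes of metabolism, mitochondria and secreted stress signals had 3 of 4 tested genes higher. SESN1 (ENSG00000080546, chr6:108986437-109094819, - strand), a sestrin that restrains the growth kinase mTORC1 and whose printed stretch holds a decamer, was at 4.57, 4 and 4.23 FPKM in control and at 10.8, 9.11 and 9.07 FPKM after OFD1 depletion. The groups stood far apart, and the mean was 2.26 times that of control. The log2 fold change of SESN1 was 1.16 (SE 0.144, adjusted p = 0.000309, limma), and it passed in all 19 alternatives with log2 fold changes from 1.01 to 1.27. It also had the smallest adjusted p of the 30 genes.

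SESN2 (ENSG00000130766, chr1:28259518-28282491, + strand), a leucine sensor of the same family that is also a target of the integrated stress response factor ATF4, was at 3.95, 3.28 and 3.91 FPKM in control and at 7.96, 6.53 and 6.01 FPKM after OFD1 depletion. The groups did not overlap. The fit gave a log2 fold change of 0.86 (SE 0.163, adjusted p = 0.00446, limma), and it passed in all 19 alternatives with adjusted p-values up to 0.0341. SESN1, SESN2 and XPC were the only p53 genes tested that passed in every alternative.

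TIGAR (ENSG00000078237, chr12:4307763-4360028, + strand), a fructose bisphosphatase that turns glucose away from glycolysis, was at 1.92, 2.44 and 1.84 FPKM in control and at 3.68, 3.52 and 3.29 FPKM after OFD1 depletion. The groups did not overlap, and the mean was 1.69 times that of control. In the fit, the log2 fold change of TIGAR was 0.74 (SE 0.185, adjusted p = 0.0191, limma), with 13 of 18 alternatives past the threshold. Its call was lost without control replicate 1, control replicate 3 or OFD1-depleted replicate 1, with no filter, and with scaling to the same total. Over all alternatives the adjusted p-values were up to 0.0908.

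FDXR, the reductase that passes electrons to mitochondrial P450 enzymes, had 8.53 ± 0.553 FPKM in control and 8.97 ± 1.75 FPKM after OFD1 depletion (SD, n = 3 each). Its log2 fold change was 0.06 (-0.30 to 0.41), and its sign depended on the alternative. SPATA18, a mediator of mitochondrial quality control, was at 0.36, 0.389 and 0.325 FPKM in control and at 1.05, 0.724 and 0.795 FPKM after OFD1 depletion, so its groups did not overlap, but the gene was too low to be tested. GDF15, a secreted factor of the TGF-beta family, was listed at 0, 0 and 0.392 FPKM in control and at 0.354, 0.473 and 0.373 FPKM after OFD1 depletion, and its groups overlapped.

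CDKN1A, the gene of the CDK inhibitor p21 and the main route from p53 to cell cycle arrest, is not one of the 33 and is given for comparison. It was at 248, 252 and 239 FPKM in control and at 331, 398 and 303 FPKM after OFD1 depletion. There was no overlap between the groups, and the log2 fold change was 0.47 (SE 0.14, adjusted p = 0.0406, limma). With an adjusted p of 0.00334 to 0.157, 12 of 19 alternatives kept it past the threshold, and leaving out any 1 control or OFD1-depleted replicate 1 ended the call.

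A list of 62 further direct targets of p53, CDKN1A among them, had genes that passed in both directions. Of 50 tested, 5 rose and 5 fell (limma), or 10% each beside 5.07% and 11.9% of all genes, and their median log2 fold change was 0.02. Besides CDKN1A, the genes that rose were DRAM1, a lysosomal membrane protein of autophagy (log2 fold change 0.55), BBC3, the BH3-only protein PUMA (0.83), TRIM22 (0.57) and the adaptor TRAF4 (0.43). The apoptosis gene BBC3 was at 3.57, 4.02 and 3.88 FPKM in control and at 5.84, 9.93 and 5.55 FPKM after OFD1 depletion, with no overlap. Without OFD1-depleted replicate 2 its log2 fold change was 0.56 (adjusted p = 0.0154, limma). PMAIP1, the BH3-only protein NOXA, went the other way from 16.9, 20.8 and 16.1 FPKM to 9.22, 7.59 and 9.74 FPKM, a log2 fold change of -1.01 (adjusted p = 0.00105, limma). The other genes that fell were SAC3D1 (-0.98), the KIT ligand gene KITLG (-1.20), IKBIP (-0.81) and E2F7, a repressor of the E2F family that is named here after its value was seen (-0.81). E2F7 had -0.52 (adjusted p = 0.0106, limma) without OFD1-depleted replicate 2. Without that sample 9 rose and 5 fell, beside 8.96% and 14.5% of all genes, and the number that rose was 0 without control replicate 2 or 3 and 1 without control replicate 1 or OFD1-depleted replicate 1.

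Of 30 regulators and cofactors upstream of p53, 27 were tested, 1 rose and 4 fell (limma), with a median log2 fold change of -0.10. These shares, 3.7% and 14.8%, were near those of all genes, at 5.07% and 11.9%. TP53BP1 and USP28, which carry the signal of centrosome loss to p53, had log2 fold changes of -0.06 (95% confidence interval -0.43 to 0.30) and -0.49 (-1.13 to 0.16), and neither passed. Among the damage kinases, CHEK1 fell from 12.8, 13.1 and 10.2 FPKM to 7.14, 6.12 and 5.59 FPKM, a log2 fold change of -0.93 (adjusted p = 0.00202, limma). ATM fell with a log2 fold change of -0.79 (adjusted p = 0.0493), and its lowest value was in OFD1-depleted replicate 2, at 1.62 FPKM beside 3.11 and 3.13 FPKM in the other two. Without this sample the log2 fold change of ATM was -0.49 (adjusted p = 0.0481). Its call was lost when any 1 control was left out, with adjusted p-values up to 0.222. CHEK2, at 5.36 to 5.51 FPKM in control and 3.35 to 4.68 FPKM after OFD1 depletion, did not pass (log2 fold change -0.44, adjusted p = 0.0914), and ATR had a log2 fold change of 0.08. HIPK2, a kinase that phosphorylates p53, and CSNK1A1, a casein kinase that works with MDM4, fell with log2 fold changes of -1.09 and -0.80. RPL5, a ribosomal protein that can bind MDM2 and whose pseudogenes leave its read assignment uncertain, rose with a log2 fold change of 0.51 (adjusted p = 0.028, limma). This call was lost without control replicate 1 or 3 or OFD1-depleted replicate 1 or 3. It was also lost with no filter and with quantile normalization. TP73, a relative of p53 named here after its value was seen, was listed at 0.

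Downstream of p21, the DREAM complex represses genes of mitosis and replication. All 20 genes of a list of such targets fell (limma), beside 11.9% of all genes, with a median log2 fold change of -1.13. The mitotic kinase genes BUB1 and PLK1 had log2 fold changes of -1.54 and -1.36, the anaphase activator CDC20 had -1.16 and the kinetochore gene CENPF had -1.70. Whether their fall ran through p21 was not tested. Because SESN2 and other targets are shared with the integrated stress response, 16 genes of that response were counted too. Of these, 5 rose and 3 fell, or 31.2% and 18.8%, beside 5.07% and 11.9% of all genes. With every sample scaled to the same total, 2 rose and 3 fell, beside 2.23% and 16.5% of all genes. The glutathione-degrading enzyme CHAC1 (2.54 times control) rose, as did NUPR1 (log2 fold change 1.01), ASNS (0.58), ATF4 (0.45) and, named after its value was seen, ATF3 (0.87), while the cystine transporter SLC7A11 (-1.57), the serine synthesis enzyme PHGDH (-0.49) and STC2 (-0.52) fell. Leaving out control replicate 1 or OFD1-depleted replicate 1 ended the calls of ATF4, ATF3, ASNS, PHGDH and STC2, while CHAC1, NUPR1 and SLC7A11 kept theirs. The part of either response in the values of the p53 genes was not tested.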

How the data were processed

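The deposited table gives FPKM per Ensembl gene and sample. By the methods and the submitters' processing notes, the authors aligned paired-end reads to GRCh38 with HISAT2 (version 2.0.5) and computed these FPKM values with StringTie. The strand setting is not given in the sources used here, and the labels name both a TruSeq and a directional NEBNext kit. The 6464 genes on alternative contigs were at 0 throughout and were left out. No pair of samples was identical. Groups came from the sample labels (3 control, 3 OFD1-depleted).

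Log2(FPKM + 0.1) of the 12025 genes that averaged 1 FPKM or more was compared with limma (version 3.58.1, R 4.3.3) with a mean-variance trend, two-sided, with Benjamini-Hochberg adjustment over all of them and a threshold of 0.05. Fold changes on this scale understate changes of low genes. The fit was tested on simulated data. Planned tests of read counts could not be used, as the table holds no counts. The same replicate numbers did not pair the samples (correlations of deviations from the group means 0.011 to 0.058), so no block entered the comparison. Of 19 alternatives, 18 were planned and 1, taking out trends on length and GC content of canonical GENCODE transcripts, was chosen after seeing the data. All 33 genes, OFD1, CDKN1A, 6 regulators of the damage and centrosome pathways and, in each other list, up to 4 genes higher and 4 lower with the smallest p were named. The genes and lists were chosen with earlier results of these data known. Intervals rest on the spread between samples, which limma drew toward a trend over all genes tested. FPKM removes depth, so counting noise had no term of its own. Promoter sequences are from RefSeq.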

Additional observations from a re-analysis of the deposited data

How the results depend on the processing

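Across 19 alternatives, 629 of 789 values were counted as unchanged, and the cause of the other changes was not tested. A single gene counted as unchanged if it kept its sign and its side of the threshold, also where it never passed. Such genes, without OFD1, gave 481 of the 629. A median had to stay within the spread of the OFD1-depleted replicates, and a count within a set ratio. A move from 8 to 12 p53 genes higher thus counted as unchanged. SESN1, SESN2 and XPC passed in every alternative, as did OFD1, with log2 fold changes of -2.02 to -1.18. The 20 DREAM targets numbered 18 to 20 lower.

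The p53 genes that rose (8) numbered 3 without a filter, 4 with scaling to the same total, 5 with that scaling without mitochondrially encoded genes, 13 with array weights and 3 to 10 when 1 sample was left out. Those that fell (1) numbered 2 with scaling to the same total, array weights, protein-coding genes alone, or length and GC trends taken out. The replicate numbers did not pair the samples, and with the replicate block 10 rose and 2 fell (762 and 1534 of all genes), with 4 of 6 samples correlating best with their own number. The median of the p53 genes was 0.26 with median-of-ratios scaling, 0.064 with the same total, 0.28 with quantile normalization, 0.15 with the same total without mitochondrially encoded genes, and 0.18 to 0.26 with 1 sample left out.

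Among further direct targets, 1 rose without a filter, 1 with the same total, 2 with that scaling without mitochondrially encoded genes, 2 without the trend, 8 with quantile normalization, 11 with array weights, 9 with length and GC trends taken out, and 0 to 9 with 1 sample left out (limma, 5 with all samples). Those that fell (5) numbered 9 with the same total, 9 with array weights and 8 with length and GC trends taken out. Upstream regulators that rose (1) numbered 0 without a filter, 2 with quantile normalization, 2 with array weights, 4 with length and GC trends taken out and 0 to 1 with 1 sample left out. Those that fell (4) numbered 1 without a filter, 7 with the same total, 8 with array weights and 7 with length and GC trends taken out.

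Of all genes, 610 rose and 1429 fell. The number that rose was 260 without a filter, 268 with the same total, 1093 with quantile normalization, 1693 with array weights, 1124 with length and GC trends taken out, and 244 to 1077 with 1 sample left out. The number that fell was 823 without a filter, 2263 with array weights, and 867 to 1741 with 1 sample left out.

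No gene that passed the test changed sign. Scaling to the same total, which moves all genes downward, turned the sign of MDM4 (-0.067), PPM1D (-0.10), DDB2 (-0.11), TNFRSF10A (-0.13), TNFRSF10B (-0.13), PERP (-0.0043), TP53INP1 (-0.12) and FDXR (-0.089). Without mitochondrially encoded genes, this scaling gave -0.020 for PPM1D, -0.023 for DDB2, -0.043 for TNFRSF10A, -0.038 for TNFRSF10B, -0.032 for TP53INP1 and -0.0018 for FDXR. Array weights gave -0.081 for FDXR. With length and GC trends taken out, DDB2 had -0.011 and TNFRSF10A -0.0044. With 1 sample left out, log2 fold changes ranged from -0.057 to 0.24 for MDM4, -0.022 to 0.099 for PPM1D, -0.090 to 0.14 for DDB2, -0.072 to 0.11 for TNFRSF10A, -0.14 to 0.15 for TNFRSF10B, -0.14 to 0.55 for PHLDA3, -0.072 to 0.19 for TP53INP1 and -0.085 to 0.19 for FDXR.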
